A study of Mus musculus with 2 samples.

Results

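The genes of the COPI and COPII vesicle coats, with their cargo receptors and the KDEL receptors, were followed through single-cell RNA of mouse pancreatic islets. Of 37 listed genes, 36 were found by symbol in both count tables, out of 32285 features in each. The listed name Sec12 matched no symbol there. The 36 genes were 11 of the COPII coat and its scaffold, 7 of the p24 family, 4 soluble-cargo receptors, 8 COPI coat subunits, 3 of the ARF cycle and 3 KDEL receptors. They were listed for their function in transport between the endoplasmic reticulum (ER) and the Golgi. Earlier results of these data were known when the list was made. The series held 2 libraries, 1 per genotype. The control library came from Spop fl/fl mice, whose Spop gene carries loxP sites, and the other from SpopβKO mice, in which Spop, a substrate adaptor of a ubiquitin ligase, was deleted in beta cells. All mice were females of 12 weeks on the C57BL/6 background. The islets had recovered for 3 days in medium with 10 mM glucose before dispersal, so all cells were cultured, and no other treatment is given. The Cre driver, the deleted exons and the number of mice behind each library are not stated in the labels.

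COPII coats bud from the ER and carry newly made proteins towards the Golgi. The small GTPase SAR1 starts the coat, SEC23 and SEC24 form its inner layer, with SEC24 binding the cargo, and SEC13 and SEC31 form the outer layer. COPI coats, recruited by ARF GTPases, bring escaped ER proteins and transport machinery back, and KDEL receptors hand ER chaperones to them. Beta cells send large amounts of proinsulin along this route, and many of its genes are known targets of the unfolded protein response (UPR), the program by which a cell enlarges its ER capacity.

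The stretches that follow show where the promoters of these genes hold the UPR element TGACGTGG, to which the UPR factors XBP1 and ATF6 are known to bind. In windows running from 250 bases before to 50 bases after each start site, from RefSeq on GRCm38.p6, 31 of the 36 genes were matched, with 34 windows. Tmed2, Tmed7, Lman1, Arcn1 and Kdelr2 had no window and were not read. The element, read on both strands, stood in 7 of the 34 windows (20.6%) and in 0.676% of all 32851 windows. Those 7 windows belonged to 6 genes, because windows of Arf1 overlapped on the same site. Each stretch is printed 5′ to 3′ on the strand of the gene, with the element, or its reverse complement CCACGTCA, in capitals.
Sec24d, chr3:123267459-123267488, plus strand: gcccgggcgccTGACGTGGcactagcaacc
Sec23a, chr12:59011993-59012022, minus strand: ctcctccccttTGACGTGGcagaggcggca
Copb1, chr7:114254690-114254719, minus strand: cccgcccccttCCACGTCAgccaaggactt
Copb2, chr9:98563713-98563742, plus strand: tcccggaagttCCACGTCAgtgggttggcc
Arf1, chr11:59228228-59228257, minus strand: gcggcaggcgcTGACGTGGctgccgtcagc
Kdelr3, chr15:79516367-79516396, plus strand: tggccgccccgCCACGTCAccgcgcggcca
The longer ER stress element, a CCAAT box followed at a fixed distance by CCACG, was in none of the 34 windows and in 0.119% of all windows. The cyclic AMP response element TGACGTCA was found once, in Cope (2.94% of member windows against 1.79% of all). The amino acid response element TGATGNAA was found once, in Kdelr1 (2.94% against 3.97%). The box CCAAT, which is also the first part of the ER stress element, stood in 38.2% of member windows and 37.4% of all. These are matches of letters and not measured sites.

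Cells were named by their leading hormone only. The insulin-led cells numbered 3870 in the control library and 6989 in the SpopβKO library, the glucagon-led cells 1744 and 1023, and the pancreatic polypeptide-led (Ppy-led) cells 115 and 106. Their beta, alpha and Ppy markers followed the names: Mafa, a beta-cell transcription factor, stood at 189 and 304 CPM, a level relative to the library's total, in insulin-led cells and at 15.5 and 20.9 in glucagon-led cells. Ttr, a transcript abundant in alpha cells, stood at 3927 and 4515 CPM in glucagon-led cells and at 246 and 217 CPM in insulin-led cells. Median depth was 8855 and 7810 unique molecular identifiers (UMIs, counted molecules) per insulin-led cell. Spop itself was at 63.4 CPM in the control and 80.6 CPM in the SpopβKO insulin-led cells. Reads at the 3′ end need not lie in the deleted exons, so this level does not check the genotype. Cells with induced heat shock RNA made up 7.39% of the control and 1.82% of the SpopβKO insulin-led cells. The 4 leukocyte markers summed to 11.1 and 57.8 CPM there, of which C1qa gave 5.50 and 48.6 CPM, while the defining leukocyte gene Ptprc stood at 0 and 0.0437 CPM, and the 4 ductal markers summed to 232 and 388 CPM, with Krt19 and Sox9 near 0. The part of these RNAs in the results was not tested. The libraries had 21 barcode sequences in common.

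Each level given here is a sum of UMIs over the cells of a class in 1 library, as CPM scaled with TMM factors, which centre the bulk of genes between sums, and each difference is a log2 ratio of such CPM with its 95% counting interval. With 1 library per genotype no test of the genotype was possible, and the intervals cover counting error only, not the spread between mice. Genes were counted as higher or lower where the log2 ratio was at least 0.32 in size, called the fold limit here, the mean at least 10 CPM and the interval free of 0. In insulin-led cells 35 of the 36 genes reached 10 CPM. Kdelr3 did not.

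Between the libraries, 4 genes were higher in the SpopβKO insulin-led cells and 6 were lower. The higher ones were Arfgap3, Sec24d, Mcfd2 and Lman1, and the lower ones Arf4, Kdelr2, Copb2, Sar1a, Sec16a and Arf1. Over all 8412 genes measured at this level 15.5% were higher and 15.2% lower, so 4 and 6 of 35 lie near that background. The median of the 35 genes was -0.14 and that of all genes -0.04. Without TMM factors the counts were 2 and 9, against 13.3% and 19.7% of all genes. With CPM over genes other than hormones they were 5 and 4, against 18.2% and 12.8%. Just outside the fold limit lay Surf4 (0.31), Tmed10 (0.29), Cope (-0.31) and Sec24c (-0.30), and just inside it Lman1 (0.32) and Arf1 (-0.33). In glucagon-led cells 0 of 35 genes were higher and 0 lower, where all genes gave 4.81% and 7.98%, and the median of the 35 was 0.00. In Ppy-led cells the counts were also 0 and 0 of 36, against 4.82% and 5.01% of all genes. The glucagon-led and Ppy-led sums held fewer UMIs, so their intervals were wider. In glucagon-led cells the ratios of the 35 genes ran from -0.27 to 0.28, inside the fold limit at any interval width. Insulin RNA in glucagon-led cells also differed between the libraries, with Ins1 at 397 and 2120 CPM, Ins2 at 3847 and 7953 CPM and a median insulin share of 0.285% and 1.00% of UMIs. Where glucagon RNA was at least 10 times the next hormone, 1 gene was higher and 1 lower, against 6.88% and 10.9% of all genes. Whether this insulin RNA was free RNA in the droplets was not tested.

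**Figure D1:**
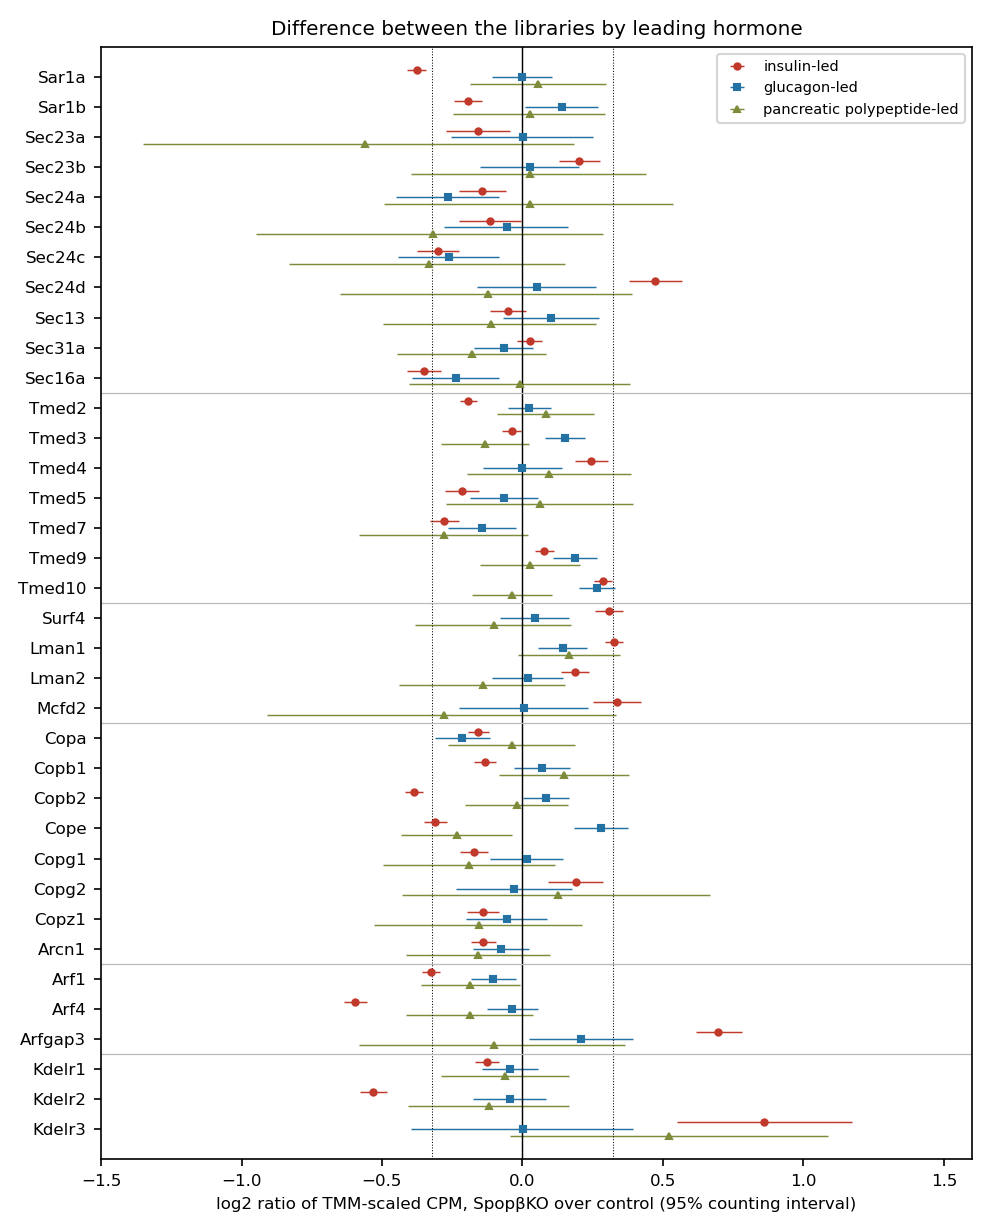
Log2 ratio of TMM-scaled CPM, SpopβKO over control, for the 36 genes in insulin-led (red circles), glucagon-led (blue squares) and Ppy-led (green triangles) cells, with bars for the 95% counting interval and dotted lines at the fold limit of 0.32. Arfgap3, Sec24d and Kdelr3 lie farthest to the right and Arf4 and Kdelr2 farthest to the left among the insulin-led values, and no glucagon-led value passes the fold lines.

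The insulin-led cells were also split into 4 bands at the quartiles of their insulin share of UMIs (4.09%, 8.72% and 19.3%), band 4 holding the most insulin RNA. Inside band 1 the counts of higher and lower genes were 1 and 6 of 35 (7.27% and 14.0% of all genes), inside band 2 they were 2 and 6 (13.2% and 15.3%), and inside band 3 they were 5 and 7 (19.4% and 17.7%). Inside band 4, 10 genes were higher and 9 lower, where all genes gave 26.9% and 25.5%. More of all genes passed the rule in the higher bands, and the members' shares moved with that background. Band 4 counts were 10 and 4 without TMM factors, against 33.3% and 17.8% of all genes. Over genes other than hormones they were 10 and 6, against 32.7% and 18.8%. Depth differed within bands: the median cell of band 2 held 10135 UMIs in the control and 3184 in the SpopβKO library, and that of band 4 held 8721 and 11344. The leukocyte markers summed to 27.6 CPM in the control and 125 CPM in the SpopβKO band 4.

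**Figure D2:**
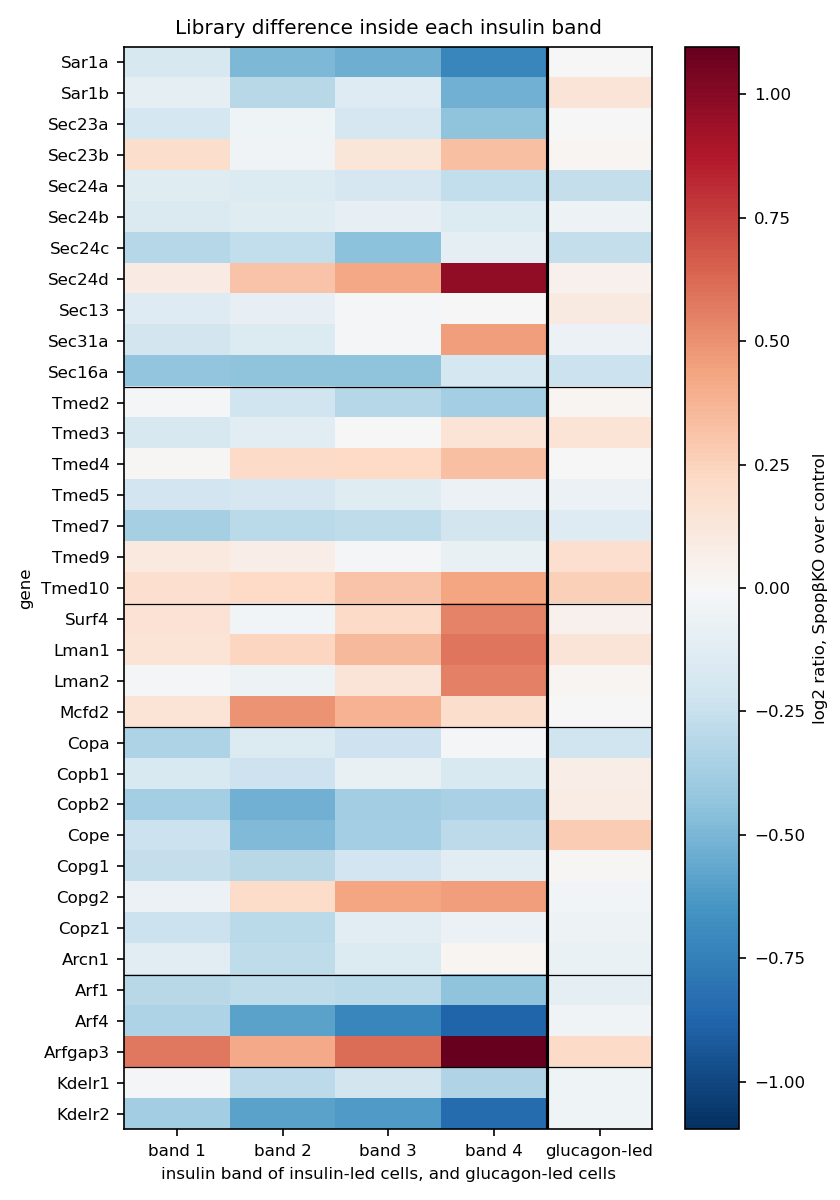
Log2 ratio, SpopβKO over control, for 35 genes (rows, grouped by role, Kdelr3 left out for its low counts) inside each insulin band and in glucagon-led cells (columns). Red is higher and blue lower in the SpopβKO library, and the colours are deeper in band 4 than in band 1 for Arfgap3 (1.10 and 0.58) and Arf4 (-0.88 and -0.34), while the glucagon-led column is pale.

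Among the GTPases that start the COPII coat, Sar1a (chr10:61680299-61693297, mm10) was lower in the SpopβKO insulin-led cells. It stood at 287 CPM in the control (95% interval 282 to 292, from 13204 UMIs) and 221 CPM in the SpopβKO library (218 to 225, from 15194 UMIs), a log2 ratio of -0.38 (-0.41 to -0.34). In glucagon-led cells Sar1a stood at 124 CPM in both libraries. Across bands 1 to 4 it climbed from 178 through 265 and 344 to 445 CPM in the control, and from 157 through 188 and 238 to 272 CPM in the SpopβKO library, so the gap between the libraries was widest in band 4 at -0.71 (-0.78 to -0.65). Its paralog Sar1b stood at 129 and 113 CPM in insulin-led cells and differed past the fold limit only inside band 4, with 169 against 117 CPM (-0.53, -0.63 to -0.43).

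The cargo-binding subunit Sec24d (chr3:123267455-123365641) was the 1 COPII gene that was higher in the SpopβKO insulin-led cells. Its levels were 28.6 CPM in the control (27.1 to 30.2, from 1315 UMIs) and 39.7 CPM in the SpopβKO library (38.2 to 41.2, from 2725 UMIs), a log2 ratio of 0.47 (0.38 to 0.57). In glucagon-led cells they were 31.3 and 32.4 CPM, a ratio of 0.05 (-0.16 to 0.26). From band 1 to band 4 Sec24d went from 29.9 to 26.1 CPM in the control and from 31.9 to 51.1 CPM in the SpopβKO library. The library ratio was 0.09 in band 1 and 0.97 (0.74 to 1.20) in band 4, and these 2 ratios differed by 0.88 (0.58 to 1.17) on counting error.

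The other SEC24 paralogs had ratios below 0. Sec24a stood at 44.0 and 39.8 CPM (-0.14, -0.23 to -0.06), Sec24b at 25.5 and 23.5 CPM (-0.12, -0.23 to -0.01), and Sec24c at 57.1 and 46.4 CPM (-0.30, -0.37 to -0.22). Because counts at the 3′ end do not grow with transcript length, the paralogs were also set against each other as shares of their summed UMIs, within the limits of how well each gene's end is captured. Sec24d made up 18.4% of Sec24 UMIs in the control insulin-led cells (Clopper-Pearson 95% interval 17.5 to 19.3) and 26.6% in the SpopβKO ones (25.7 to 27.4). In band 4 the shares were 16.8% (14.7 to 19.2) and 31.0% (29.3 to 32.7), and in glucagon-led cells 19.4% (18.0 to 20.9) and 22.4% (20.1 to 24.9).

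**Figure D3:**
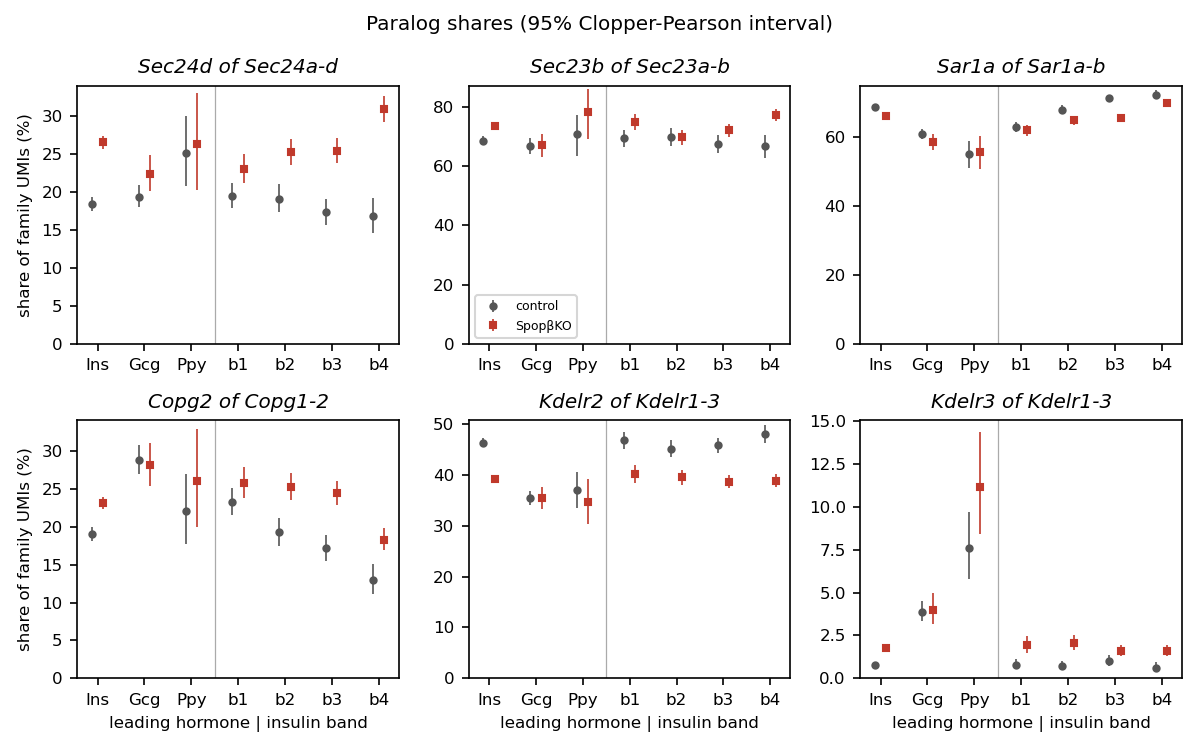
Share of a paralog in the summed UMIs of its family, in percent with Clopper-Pearson 95% intervals, in cells led by insulin (Ins), glucagon (Gcg) and pancreatic polypeptide (Ppy) and in insulin bands 1 to 4 (b1 to b4), control in grey and SpopβKO in red. The Sec24d share lies higher in the SpopβKO library in each insulin band, the Kdelr2 share lies lower in each, and the Kdelr3 share is highest in Ppy-led cells.

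In the remaining COPII coat 1 gene, Sec16a, passed the fold limit over all insulin-led cells. Sec23a, an inner-layer subunit, stood at 24.0 and 21.5 CPM, and its paralog Sec23b at 52.4 and 60.3 CPM (0.20, 0.13 to 0.27). In band 4 they lay on opposite sides, Sec23a at -0.44 (-0.69 to -0.19) and Sec23b at 0.33 (0.17 to 0.49). The Sec23b share of the pair was 68.6% (67.0 to 70.1) in the control and 73.7% (72.5 to 74.8) in the SpopβKO insulin-led cells. The outer-layer gene Sec31a stood at 146 and 149 CPM over all insulin-led cells. In band 4 it stood at 132 and 182 CPM (0.46, 0.35 to 0.57), after 153 and 133 CPM in band 1. Its partner Sec13 stood at 72.0 and 69.4 CPM, with a ratio of -0.01 (-0.16 to 0.15) in band 4. Sec16a, the scaffold of ER exit sites, was lower, at 85.6 and 67.1 CPM (-0.35, -0.41 to -0.29), and its glucagon-led ratio of -0.24 (-0.39 to -0.08) had the same sign below the fold limit.

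The p24 proteins, encoded by the Tmed genes, span the membrane, take cargo such as lipid-anchored proteins into the coat and cycle between ER and Golgi. Of the 7 genes 0 passed the fold limit over all insulin-led cells, with ratios from -0.28 (Tmed7) to 0.29 (Tmed10) and a median of -0.04. Tmed10 stood at 277 and 337 CPM in insulin-led cells and at 298 and 358 CPM in glucagon-led cells. Its ratios in the 2 classes, 0.29 (0.26 to 0.32) and 0.27 (0.20 to 0.33), differed by 0.02 (-0.05 to 0.09). Inside band 4, Tmed10 (0.43, 0.36 to 0.51) and Tmed4 (0.33, 0.20 to 0.47) were higher and Tmed2 was lower (384 and 297 CPM, -0.37, -0.44 to -0.31). Tmed3 stood at 270 and 263 CPM, Tmed5 at 85.5 and 73.7 CPM and Tmed9 at 261 and 276 CPM. Tmed7, at 118 and 97.3 CPM, overlaps another counted gene, Ticam2, on the same strand, so its UMIs may be shared with it.

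The 4 receptors that load soluble cargo into COPII vesicles all had ratios above 0 in insulin-led cells, from 0.19 to 0.34. By the rule 2 of them were higher. Over all 8412 genes 3779 lay above 0, and 15.5% were higher by the rule. Lman1, the lectin also named ERGIC-53, stood at 270 CPM in the control (266 to 275) and 339 CPM in the SpopβKO library (334 to 343), a ratio of 0.32 (0.29 to 0.36). Mcfd2, which binds LMAN1 to carry coagulation factors, stood at 36.8 and 46.6 CPM (0.34, 0.25 to 0.42). Lman1 ran from 285 to 249 CPM from band 1 to band 4 in the control and from 317 to 373 CPM in the SpopβKO library, so the gap widened to 0.58 (0.51 to 0.66) in band 4. Both lie near the fold limit, and with a mitochondrial limit of 10% they fell just short of it, at 0.30 for Lman1 and 0.31 for Mcfd2.

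Surf4, a receptor for many soluble secreted proteins, proinsulin among them, stood at 106 and 132 CPM in insulin-led cells (0.31, 0.26 to 0.36) and at 93.2 and 96.1 CPM in glucagon-led cells (0.04, -0.08 to 0.17). It climbed with the insulin band in both libraries, from 92.6 to 120 CPM in the control and from 103 to 175 CPM in the SpopβKO library, and in band 4 its ratio was 0.54 (0.43 to 0.65). The lectin gene Lman2 stood at 112 and 127 CPM in insulin-led cells. Its ratio was -0.02 in band 1 and 0.55 (0.44 to 0.67) in band 4. The 4 glucagon-led ratios lay between 0.01 and 0.14, and each was below the insulin-led ratio of the same gene by 0.17 to 0.33, with counting intervals of the difference free of 0.

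**Figure D4:**
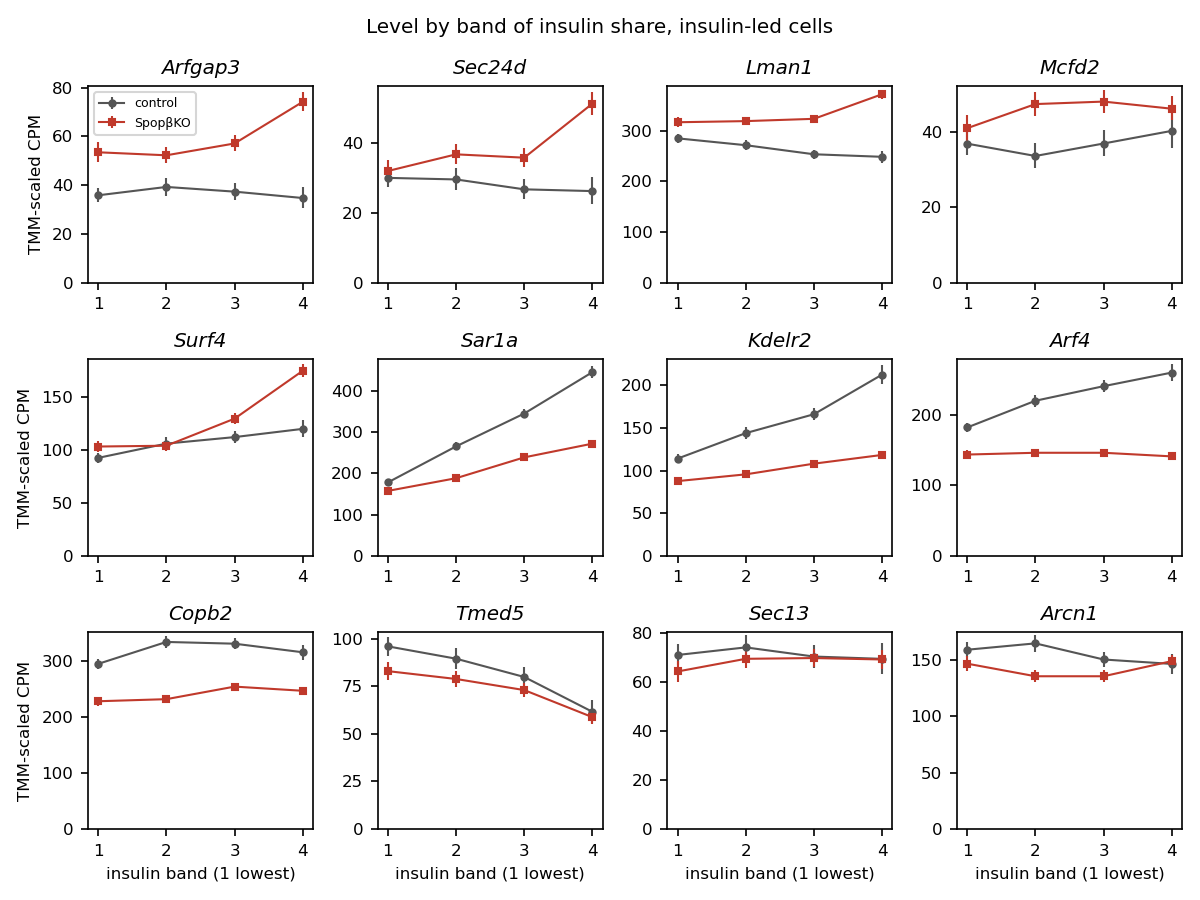
TMM-scaled CPM (vertical axis, from 0) by insulin band (horizontal axis, 1 the lowest) for 12 genes in control (grey) and SpopβKO (red) insulin-led cells, with 95% Poisson intervals. Sar1a and Kdelr2 climb in both libraries with the control line above, Arf4 climbs in the control from 182 to 260 CPM and stays between 141 and 146 CPM in the SpopβKO library, and Arfgap3 lies higher in the SpopβKO library in each band.

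Of the 8 COPI coat subunits, 7 had ratios below 0 in insulin-led cells and 1, Copb2, passed the fold limit. Among all 8412 genes 4633 lay below 0, and 15.2% were lower by the rule. Copb2 (chr9:98563721-98588382), which encodes the beta-prime subunit that binds retrieval signals, stood at 320 CPM in the control (315 to 325) and 245 CPM in the SpopβKO library (241 to 248), a ratio of -0.39 (-0.42 to -0.35). It was lower by the rule inside each of the 4 bands, from -0.53 to -0.35. In glucagon-led cells it stood at 207 and 220 CPM (0.08, 0.00 to 0.16). Cope, the epsilon subunit, stood at 198 and 160 CPM in insulin-led cells (-0.31) and at 137 and 166 CPM in glucagon-led cells (0.28, 0.19 to 0.38). The difference of these 2 ratios, -0.59 (-0.69 to -0.49), was the farthest from 0 on the negative side among the 36 genes.

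The other COPI subunits lay closer together. The ratios were -0.16 for Copa, -0.13 for Copb1, -0.17 for Copg1, and -0.14 each for Copz1 and for Arcn1, the delta subunit. Copa differed in band 1 (203 and 161 CPM, -0.34, -0.42 to -0.26) and not in band 4 (209 and 207 CPM, -0.02, -0.10 to 0.07). The 1 subunit above 0 was Copg2, a second gamma subunit, at 28.9 and 33.0 CPM (0.19, 0.09 to 0.29). In band 4 it stood at 20.7 and 28.5 CPM (0.46, 0.19 to 0.74). Copg2 made up 19.0% of the gamma UMIs in control (18.1 to 19.9) and 23.1% in SpopβKO insulin-led cells (22.3 to 24.0). In glucagon-led cells the shares were 28.8% (26.9 to 30.8) and 28.2% (25.4 to 31.1).

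Among the genes at 10 CPM or more, those of the ARF cycle lay farthest apart, with the ratios for ARF GTPases and for an enzyme that switches ARF off pointing in opposite directions. Arf4 (chr14:26638074-26665084), an ARF that acts with ARF1 at the early Golgi, stood at 221 CPM in the control (217 to 225) and 146 CPM in the SpopβKO insulin-led cells (143 to 149), a ratio of -0.59 (-0.63 to -0.55) or 1.51-fold lower. Arf1, which recruits the COPI coat, stood at 302 and 241 CPM (-0.33, -0.36 to -0.29). Arfgap3 (chr15:83299739-83350247), a GTPase-activating protein of the Golgi that acts on ARF1, stood at 37.2 CPM (35.5 to 39.0) and 60.4 CPM (58.6 to 62.3), a ratio of 0.70 (0.62 to 0.78) or 1.62-fold higher.

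These 3 genes differed less in glucagon-led cells: Arf4 at 173 and 169 CPM (-0.04, -0.13 to 0.06), Arf1 at 235 and 219 CPM (-0.10, -0.18 to -0.02), and Arfgap3 at 37.8 and 43.7 CPM (0.21, 0.02 to 0.39). Inside bands 1 to 4 Arfgap3 stood at 35.8, 39.3, 37.3 and 34.7 CPM in the control and at 53.5, 52.3, 57.1 and 74.2 CPM in the SpopβKO library, higher by the rule in each band. Arf4 was lower by the rule in each band, and in band 4 stood at 260 and 141 CPM (-0.88, -0.97 to -0.79). Without cells in which Hspa1a and Hspa1b RNA was high, the insulin-led ratios were -0.58 for Arf4 and 0.69 for Arfgap3.

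KDEL receptors catch ER chaperones in the Golgi by their tail signal and return them in COPI vesicles. Kdelr2 (chr5:143403838-143421901) stood at 152 CPM in the control (148 to 155) and 105 CPM in the SpopβKO insulin-led cells (103 to 107), a ratio of -0.53 (-0.58 to -0.48). It was lower by the rule in each band, and in band 4 stood at 212 and 118 CPM (-0.84, -0.94 to -0.75). In glucagon-led cells Kdelr2 stood at 87.1 and 84.5 CPM (-0.04, -0.17 to 0.08). Kdelr1 stood at 173 and 159 CPM (-0.13, -0.17 to -0.08) and passed the limit in band 4 with 228 and 182 CPM (-0.33, -0.41 to -0.24). Hspa5, the ER chaperone BiP and a main cargo of these receptors, stood at 1814 and 1341 CPM in insulin-led cells and at 1297 and 1456 CPM in glucagon-led cells.

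Kdelr3 was a rare transcript of insulin-led cells, with 2.59 CPM in the control (2.14 to 3.10, from 119 UMIs) and 4.69 CPM in the SpopβKO library (4.19 to 5.23, from 322 UMIs). It stood at 9.55 and 9.57 CPM in glucagon-led cells and at 22.7 and 32.6 CPM in Ppy-led cells. It made up 0.79% (0.66 to 0.95) and 1.75% (1.57 to 1.95) of the KDEL receptor UMIs in insulin-led cells, 3.88% and 4.01% in glucagon-led cells, and 7.60% (5.82 to 9.72) and 11.1% (8.43 to 14.3) in Ppy-led cells. The Kdelr2 share was 46.3% (45.5 to 47.1) and 39.1% (38.4 to 39.8) in insulin-led cells, and 35.4% in the glucagon-led cells of each library.

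Over the 35 genes at 10 CPM or more, the library ratio differed between insulin-led and glucagon-led cells by more than counting error for 21, or 60%. Over all 7963 genes measured in both classes this share was 49.3% (22.9% above 0 and 26.4% below), with fewer UMIs behind each gene (a median of 5373 against 16199 over the 4 sums), and the median size of the difference was 0.20 for all genes and 0.18 for the 35. The count therefore does not set these genes apart. Of the 21, 7 differences were above 0, with Arfgap3 (0.49, 0.29 to 0.69) and Sec24d (0.42, 0.19 to 0.65) farthest. The 14 below 0 were led by Cope, Arf4 (-0.56, -0.66 to -0.46), Kdelr2 (-0.49, -0.62 to -0.35) and Copb2 (-0.47, -0.56 to -0.38). Counts of cells from the same 2 libraries enter each ratio, so these differences compare classes of cells within libraries and not mice.

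Within each library, the vesicle genes were compared between insulin-led and glucagon-led cells. In the control 17 of 35 were higher in insulin-led cells and 0 lower, against 28.5% and 18.2% of all genes. In the SpopβKO library 14 were higher and 2 lower, against 25.9% and 14.7%, and without TMM factors 7 and 2, against 19.5% and 20.1%. The medians were 0.30 and 0.25, where all genes gave 0.09 and 0.08. In both libraries 10 of 35 genes (28.6%) were higher, as were 16.0% of all genes tested in both. The summed level of the 36 genes was 5118 CPM in the control insulin-led cells and 4027 CPM in the glucagon-led cells, and 4787 and 4130 CPM in the SpopβKO library. In Ppy-led cells the sums were 4757 and 4574 CPM.

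Sar1a led this comparison, at 1.21 (1.14 to 1.27) in the control and 0.84 (0.74 to 0.93) in the SpopβKO library. Lman1 followed in the SpopβKO library at 0.81 (0.73 to 0.88), after 0.62 (0.57 to 0.68) in the control. Kdelr2 stood at 0.80 (0.72 to 0.88) in the control and 0.31 (0.20 to 0.43) in the SpopβKO library, and Mcfd2 at 0.43 (0.29 to 0.58) and 0.76 (0.57 to 0.96). Of the 8 COPI subunits 6 were higher in the control and 4 in the SpopβKO library, among them Copb1 (0.53 and 0.33) and Copg1 (0.54 and 0.35). Cope stood at 0.54 (0.47 to 0.60) in the control and at -0.06 (-0.14 to 0.03) in the SpopβKO library. Tmed5 (-0.26 and -0.41) and Sec24b (-0.28 and -0.34) stood below 0 in both libraries and passed the limit in the SpopβKO library.

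**Figure D5:**
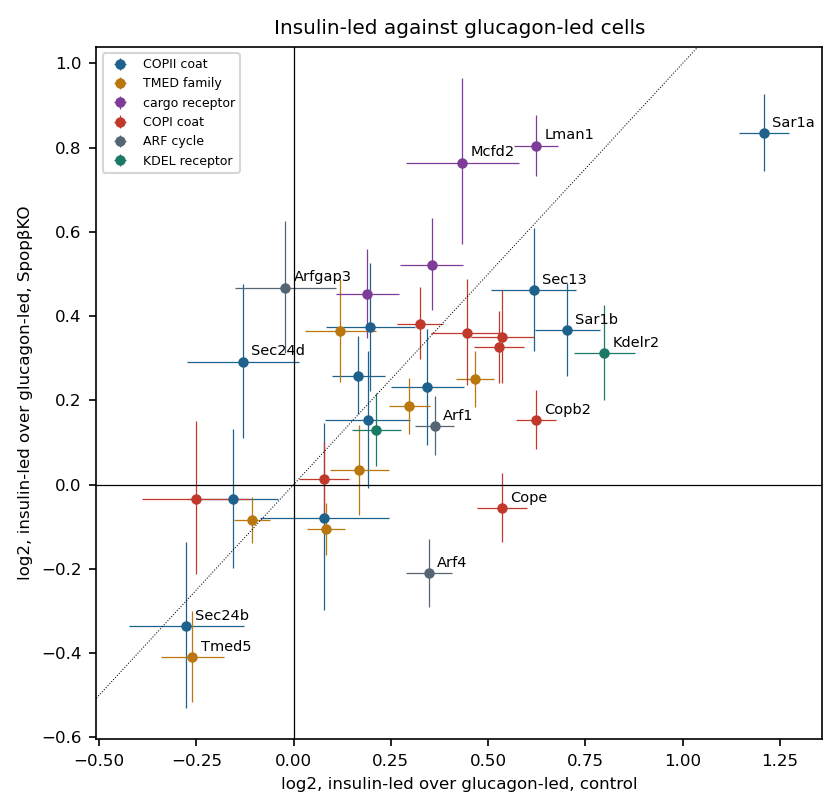
Log2 ratio of insulin-led over glucagon-led cells for 35 genes, coloured by role, in the control (horizontal axis) and in the SpopβKO library (vertical axis), with 95% counting intervals and a dotted line of equal ratios. Most genes lie right of and above 0, Sar1a farthest at 1.21 and 0.84, while Arf4 and Cope lie well below the line and Tmed5 and Sec24b below 0 in both libraries.

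Ppy-led cells held 10 higher and 2 lower genes of 36 against glucagon-led cells in the control (15.9% and 17.8% of all genes), and 4 and 1 in the SpopβKO library (8.50% and 8.98%). Kdelr3 is among the higher genes of each library, but it passed the CPM minimum only through its level in Ppy-led cells, 22.7 and 32.6 CPM against 9.55 and 9.57 CPM in glucagon-led cells, so these levels are a description. Lman1 (0.45 and 0.47), Tmed4 (0.41 and 0.50) and Sar1b (0.53 and 0.41) were higher in both. Cope stood at 0.79 (0.66 to 0.92) in the control.

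The last comparison set insulin band 4 against band 1 within a library, and it leans on the scaling. With TMM factors 10 of 35 genes were higher in band 4 and 2 lower in the control (22.6% and 24.5% of all genes), and 14 and 1 in the SpopβKO library (24.0% and 12.7%). Without TMM factors, where insulin RNA itself takes up the total, the median of all genes moved to -0.83 and -0.68. The counts became 1 and 29 in the control (1.69% and 86.3% of all genes) and 0 and 25 in the SpopβKO library (2.62% and 83.3%). Over genes other than hormones they were 6 and 6 (14.0% and 37.0%), and 7 and 1 (15.6% and 22.3%). Relative to other genes, Sar1a stood highest in both libraries, at 1.32 in the control (178 and 445 CPM) and 0.79 in the SpopβKO library (157 and 272 CPM). Kdelr2 (0.90 and 0.43), Kdelr1 (0.83 and 0.52) and Surf4 (0.37 and 0.76) were the other 3 that were higher in both. These 4 of 35 genes (11.4%) lie near the background, as 10.1% of all 8002 genes tested in both were higher in both. Without TMM factors Surf4 in the control and Kdelr1 and Kdelr2 in the SpopβKO library changed sign.

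Other genes passed the limit in 1 of the libraries. Arf4 (0.51, 0.43 to 0.60) and Sar1b (0.71, 0.60 to 0.81) were higher in band 4 of the control, with signs that changed without TMM factors. Arf4 stood at -0.03 (-0.11 to 0.06) in the SpopβKO library. Sec24d (0.68, 0.51 to 0.85), Lman2 (0.55, 0.46 to 0.64), Arfgap3 (0.47, 0.34 to 0.60) and Sec31a (0.45, 0.37 to 0.54) were higher in band 4 of the SpopβKO library, and their signs also changed there without TMM factors. Sec24d stood at -0.19 (-0.45 to 0.05) in the control. Tmed5 was lower in band 4 of both (-0.64, -0.80 to -0.49, and -0.50, -0.62 to -0.37), and Copg2 was lower in the control (-0.72, -0.99 to -0.45). The summed level of the 36 genes went from 4697 to 5496 CPM from band 1 to band 4 in the control and from 4331 to 5149 CPM in the SpopβKO library. Without TMM factors it went the other way, from 5619 to 3754 CPM and from 5393 to 3831 CPM, and over genes other than hormones it stood at 5846 and 6149 CPM in the control and at 5638 and 6125 CPM in the SpopβKO library. Library ratios in band 4 and band 1 differed by more than counting error for 22 of 35 genes, 14 of them above 0 and 8 below. Of all 7998 genes measured in both bands 55.2% did so (31.4% above 0 and 23.8% below), with a median size of 0.30 against 0.24 for the 35, so this count too lies near its background.

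A wider list of 65 other genes of the route, from coat accessories and cargo adaptors to tethers, SNAREs and Rabs, was read beside these. Of the 62 that reached 10 CPM in insulin-led cells, 5 were higher and 7 lower in the SpopβKO library, with a median of -0.03. Both counts are smaller shares than the 15.5% and 15.2% of all genes, so the list does not stand out and its genes are named as values only. The higher ones were led by Tmed6, a p24 protein known from secretory tissues such as the islet, at 10.9 and 25.6 CPM (1.24, 1.09 to 1.38), and Copz2, a second zeta subunit of COPI, at 21.9 and 35.4 CPM (0.69, 0.58 to 0.80). The tether gene Rint1 (0.40, 0.31 to 0.50) and the cycling protein gene Ergic1 (0.37, 0.30 to 0.44) came next. The lower ones were led by the GTPase gene Arf6 at 64.5 and 40.9 CPM (-0.66, -0.73 to -0.58) and Napa, which encodes alpha-SNAP, the adaptor that takes SNARE complexes apart, at 256 and 181 CPM (-0.50, -0.54 to -0.47). Yif1a (-0.48, -0.54 to -0.42) and Tmed1 (-0.39, -0.54 to -0.25) followed. In glucagon-led cells 2 of 62 were higher and 2 lower, below the 4.81% and 7.98% of all genes, and Arf6 was among the lower ones (-0.41, -0.60 to -0.22). In band 4 Tmed6 stood at 6.75 and 25.3 CPM (1.91, 1.48 to 2.37). Preb, whose protein is the exchange factor for SAR1, stood at a ratio of 0.03.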

How the data were processed

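Droplet 3′ RNA counts of islet cells came from 1 control and 1 SpopβKO library. The authors deposited unnormalised UMI counts for each gene in each barcode. Per the file headers, Cell Ranger 6.0.0 made them. The submitters' processing notes list the build mm10 and the tools R 4.1.1 and Seurat 4.1.0 without their roles. Strand handling and the rule for calling cells are not given in the sources used here. The tables held 7768 barcodes with 82541585 UMIs (control) and 10033 with 89977773 (SpopβKO).

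A barcode entered as a cell from 500 genes upwards if no more than 15% of its UMIs were mitochondrial, which left 6850 and 8842 cells. A cell was named by the largest of insulin (Ins1 and Ins2), Gcg, Sst and Ppy RNA where it took at least 1% of UMIs and 2 times the next. Mixed barcodes (301 and 365) and cells with 0.1% or more of UMIs in 9 non-endocrine marker genes (59 and 125) were left out, as were low-hormone cells (754 and 226), and the 7 and 8 Sst-led cells were too few. No doublet caller was run, and doublets within a class remain. UMIs were summed per class, band and library, TMM factors (trimmed mean of M values) were computed over all sums, and 95% intervals were exact: Poisson for levels, conditional binomial for ratios and Clopper-Pearson for shares. Differences of 2 log2 ratios carry a normal counting interval, computed over all genes as background. The code was tested on simulated data. Members and lists were chosen with earlier results of these data known. Every member was named, and of the wider list up to 4 per direction with the largest ratios past the rule. Gene positions came from GENCODE release 21 and promoters from RefSeq. Python 3.11.15, numpy 2.4.6, scipy 1.17.1 and pandas 2.3.3 were used. Alternatives changed the scaling, cell filters, hormone rule, cell weighting, CPM minimum and bands.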

Additional observations from a re-analysis of the deposited data

Results flagged for a closer look

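Some genes had ratios with opposite signs in 2 groups of cells, each with a counting interval free of 0. With 1 library per genotype the differences between the groups were not tested beyond counting error. Between the libraries, SpopβKO over control, 4 genes were below 0 in insulin-led cells and above 0 in glucagon-led cells. Their log2 ratios were -0.19 and 0.14 for Sar1b, -0.039 and 0.15 for Tmed3, -0.39 and 0.084 for Copb2, and -0.31 and 0.28 for Cope. For insulin-led over glucagon-led cells the sign differed between control and SpopβKO library for Tmed3 (0.084 and -0.11) and for Arf4 (0.35 and -0.21). For insulin band 4 over band 1, 4 genes were below 0 in the control and above 0 in the SpopβKO library: Sec31a (-0.21 and 0.45), Tmed3 (-0.17 and 0.16), Tmed10 (-0.11 and 0.14) and Lman1 (-0.20 and 0.23). The positive value of Sec31a in that comparison became -0.29 without TMM factors. Those of Tmed3, Tmed10 and Lman1 also fell below 0, so none of these opposite signs held under that scaling.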

How the results depend on the processing

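No paired analysis was possible because each genotype has 1 library and the labels give no replicate numbers. No gene past the fold limit between the libraries, in insulin-led cells or in band 4, changed sign under any alternative run for it. Over the values of genes past the fold limit, 868 of 1065 moved by less than their interval, 176 moved and 21 changed sign. The cause of these shifts was not tested.
Counts of higher or lower genes moved by over 1.5 times as follows, with the share of all genes in brackets where not given above. Without TMM factors, the library comparison gave 2 higher in insulin-led cells and 4 lower in band 4, insulin-led over glucagon-led cells gave 7 higher in the SpopβKO library, and band 4 over band 1 gave 1 higher and 29 lower in the control and 0 and 25 in the SpopβKO library. Over genes other than 7 hormone genes, band 4 over band 1 gave 6 and 6 in the control and 7 higher in the SpopβKO library. With that scaling the class comparison gave 1 lower in the SpopβKO library (12.5%). With a mitochondrial limit of 10%, or (chosen after seeing the data) no minimum hormone share, 2 were higher in insulin-led cells (14.5% and 13.7%). With at least 5000 UMIs per cell, 2 were higher in glucagon-led cells (7.996%) and 1 was lower in the SpopβKO class comparison (14.6%). With that UMI minimum, 3 were lower in band 4 over band 1 of the SpopβKO library (21.2%). Without a margin over the next hormone, the class comparison gave 1 lower in the SpopβKO library (14.1%). Without the CPM minimum it gave 1 lower in the control (19.4%). With a margin of 10 times, 1 was higher and 1 lower in glucagon-led cells. With each cell weighted equally, 7 were higher in insulin-led cells (20.8%), and 2 higher and 1 lower in glucagon-led cells (7.80% and 10.3%). Under equal weights 2 were lower in the control class comparison (19.1%). In band 4 over band 1, 7 were lower in the control (38.8%) and 2 in the SpopβKO library (21.2%). With the main scaling and weights, the genes higher between the libraries inside bands 1, 2 and 4 numbered 1, 2 and 10, as given above. The checks of band 4 between libraries were also chosen after seeing the data.
Among genes past the fold limit, changes of sign were all in band 4 over band 1. Without TMM factors they were, in the control, Sar1b -0.10, Sec23a -0.35, Sec24a -0.48, Tmed2 -0.36, Tmed9 -0.31, Surf4 -0.43 and Arf4 -0.29. In the SpopβKO library they were Sec23b -0.33, Sec24d -0.061, Sec31a -0.29, Sec16a -0.40, Tmed4 -0.26, Lman2 -0.20, Copa -0.38, Copg1 -0.30, Copz1 -0.39, Arfgap3 -0.27, Kdelr1 -0.22 and Kdelr2 -0.31. With equal cell weights Sec24a (control) was -0.44 and Sec16a (SpopβKO) -0.074. Precision was limited most for Kdelr3, by its few UMIs, and for the Ppy-led cells, by their number (115 and 106).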

Other observations

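Genes known as regulators of this route, read as values with no test, did not all stand on 1 side. Creb3l2, a membrane-bound factor known for raising genes of the secretory pathway, stood at 34.2 CPM in the control and 55.9 CPM in the SpopβKO insulin-led cells, at 35.3 and 79.7 CPM in insulin band 4, and at 68.1 and 65.3 CPM in glucagon-led cells. Xbp1, a factor of the unfolded protein response, stood at 143 and 156 CPM in insulin-led cells, and Atf4, the factor of its translational arm, at 437 and 285 CPM. In glucagon-led cells Xbp1 stood at 148 and 139 CPM and Atf4 at 424 and 346 CPM. The counts do not show splicing of Xbp1 or the protein of any of these genes.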
